A study of Homo sapiens with 4 samples.

Results

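The genes of fatty acid synthesis and desaturation were followed by RNA-seq in HCT116 and LOVO cells, which are human colorectal cancer cell lines, grown attached or as spheroids. The members were chosen by name, with earlier results of these data known. They were the 10 genes SREBF1, ACLY, ACSS2, ACACA, FASN, SCD, ELOVL5, ELOVL6, FADS1 and FADS2 out of the 58735 genes in the deposited table, and each name matched 1 row. There were 4 libraries, 1 of adherent cells and 1 of spheroids from either line, all given as wild type in the labels. Adherent cells were kept in RPMI-1640 with 10% fetal bovine serum and without drug. According to the methods of the study, spheroids grew in ultralow attachment dishes in serum-free DMEM/F12 with B27, N2, bFGF and EGF, and were formed in the presence of oxaliplatin at 1 μg/ml, whereas the labels give a treatment of 1 mg/ml and name no drug. Growth form, serum, growth factors and drug therefore differed together and cannot be told apart.

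Cells build fatty acids from acetyl-CoA. ACLY makes it from citrate and ACSS2 makes it from acetate, ACACA carboxylates it to malonyl-CoA, and FASN joins the units into palmitate with NADPH as the reductant. ELOVL6 and ELOVL5 lengthen the chains, SCD turns saturated chains into monounsaturated ones such as oleate, and FADS1 and FADS2 add double bonds on the way to polyunsaturated fatty acids. SREBF1 encodes the transcription factor SREBP-1, which waits as a precursor in the endoplasmic reticulum, is carried to the Golgi by SCAP unless an INSIG protein holds it back, and is cut there by the proteases of MBTPS1 and MBTPS2. Its close relative from SREBF2 acts mostly on cholesterol synthesis. High FASN is a well-known trait of carcinomas.

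The values are FPKM, fragments per kilobase of gene, with library sizes as the authors scaled them. For the members, the length of a gene was that of the exonic bases of all its annotated transcripts. These transcripts numbered from 1 for SCD to 24 for ACSS2, and which of them were expressed was not determined. Levels of different genes can therefore be compared only roughly, and orders and ratios between genes rest on these lengths. Ratios between libraries for 1 gene use the same length on both sides. Depth ran from 15483569 to 20429147 reads on genes per library. Because each condition had 1 library, no value carries a replicate error, and no difference within a line, between the lines at 1 growth form, or between the changes of the lines could be tested. A difference is the log2(FPKM + 1) of spheroids less that of adherent cells, a scale that makes changes of low genes look smaller, and a difference over 1 is called higher and one under -1 lower. The ratio of FPKM carries an interval for counting error at 95%, exact by Clopper-Pearson, from the reads behind it. These intervals cover counting error only and compare libraries, not conditions. Of the 58735 genes, 14429 averaged 1 FPKM or more over the 4 libraries and were compared, all 10 members among them.

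The labels were checked against markers of colon epithelium, and the LOVO libraries went against their label. EPCAM, an epithelial adhesion protein, stood at 85.6 FPKM in adherent cells and 79.3 in spheroids of HCT116 but at 0.930 and 1.50 in those of LOVO. E-cadherin (CDH1) was at 31.1 in both HCT116 libraries and at 0.117 and 0.00805 in LOVO, and the intestinal factor CDX2 had 0 reads in both LOVO libraries. Of 10 such markers, 7 and 6 were under 1 FPKM in adherent LOVO cells and LOVO spheroids, against 4 and 3 in HCT116, and their summed FPKM was 327 and 187 against 1754 and 1288. The keratins KRT8 and KRT18 were present in both lines, with KRT18 at 122 and 98.8 FPKM in LOVO. The summed FPKM of 5 fibroblast markers was 52.5 and 71.6 in LOVO and 5.52 and 15.9 in HCT116, and most of it in LOVO was LUM, at 31.4 and 50.4. The 5 did not all go this way. LUM, DCN and COL3A1 had more reads in both LOVO libraries than in HCT116. COL1A2 had 0 and 1 reads in either line, and COL1A1 had 1741 and 1206 in LOVO against 1103 and 2557 in HCT116. LOVO therefore names the libraries by their labels only, and results are mostly given line by line. The levels and ratios of HCT116 do not rest on the LOVO libraries. The filter on mean FPKM does, and with it the HCT116 shares, ranks and medians over all genes. The fit over both lines also used the LOVO libraries. Mitochondrially encoded genes took 6.77% of the reads in adherent HCT116 cells, 11.1% in HCT116 spheroids, and 3.65% and 3.97% in the LOVO libraries. The part of these markers and shares in the results was not tested.

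Promoter stretches of 5 members are shown, of which 4 had higher levels in LOVO spheroids and SREBF1, the regulator, did not. They lie before the transcription start in RefSeq (GRCh38.p14) and leave out bases that GENCODE 29 gives as untranslated region, and the entries of 9 members were matched, that of FASN being absent. The stretches of SCD and SREBF1 lie directly before their genes as GENCODE gives them, and those of ACLY, ACSS2 and ELOVL6 lie within the span of their genes, before a RefSeq start further in. Capitals mark an SP1 box (GGGCGG or CCGCCC) or a CCAAT box (CCAAT or ATTGG), read on both strands. Boxes in the bases left out are not shown, such as the 2 SP1 boxes of SCD. ACLY and ACSS2 each have another entry that is not shown, and that of ACSS2 holds 3 SP1 boxes and no CCAAT box.
SCD (chr10:100346983-100347123, strand +): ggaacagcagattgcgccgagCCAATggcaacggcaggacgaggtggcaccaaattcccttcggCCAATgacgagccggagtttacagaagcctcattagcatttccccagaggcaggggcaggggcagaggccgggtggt
ACLY (chr17:41919023-41919272, strand -): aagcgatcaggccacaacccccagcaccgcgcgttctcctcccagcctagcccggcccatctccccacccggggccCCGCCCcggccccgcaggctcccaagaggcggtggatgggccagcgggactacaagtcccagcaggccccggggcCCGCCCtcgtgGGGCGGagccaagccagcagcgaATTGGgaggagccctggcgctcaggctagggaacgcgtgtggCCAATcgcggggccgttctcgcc
ACSS2 (chr20:34874739-34874941, strand +): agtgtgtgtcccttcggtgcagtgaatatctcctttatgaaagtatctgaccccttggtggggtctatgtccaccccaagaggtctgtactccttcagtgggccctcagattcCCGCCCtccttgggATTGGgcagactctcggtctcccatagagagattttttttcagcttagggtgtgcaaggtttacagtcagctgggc
ELOVL6 (chr4:110198677-110198841, strand -): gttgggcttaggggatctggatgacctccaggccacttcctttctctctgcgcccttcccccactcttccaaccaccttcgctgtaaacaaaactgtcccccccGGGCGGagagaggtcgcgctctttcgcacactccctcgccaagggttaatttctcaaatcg
SREBF1 (chr17:17837003-17837236, strand -): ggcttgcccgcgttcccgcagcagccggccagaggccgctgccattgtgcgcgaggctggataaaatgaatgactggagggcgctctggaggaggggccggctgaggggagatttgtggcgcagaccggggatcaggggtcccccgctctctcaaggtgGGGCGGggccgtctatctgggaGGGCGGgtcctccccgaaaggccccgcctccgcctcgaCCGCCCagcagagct
In the windows of 300 bases, from 250 before the start to 50 after it, the sterol element core (TCACCCCAC or its reverse complement) was in 0 of the 14 promoter entries of the members and in 0.430% of all 35116 entries. The E-box CACGTG was in 1 entry, that of ELOVL5, and in 7.26% of all entries. CCAAT boxes were in 8 of the 14 entries (57.1%) and in 34.6% of all, and SP1 boxes were in 11 of the 14 (78.6%) and in 45.0% of all. Entries of a gene can overlap, as those of ACLY do, and then hold the same boxes. By gene, CCAAT boxes were in 6 of 9 members and 10846 of all 27305 genes. SP1 boxes were in 8 of the 9 and in 13189 of all. A match is a string of letters in a window and not a bound site, and the lack of a match says nothing of the factor.

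In HCT116, most members differed little between spheroids and adherent cells, and SCD was the furthest apart. In LOVO, ACSS2, ACLY, FASN, SCD and ELOVL6 stood more than 2 times as high in spheroids, whereas ELOVL5, ACACA, SREBF1, FADS1 and FADS2 did not. The combined reads of the 10 genes made up 0.272% of the reads on genes in adherent HCT116 cells (95% exact binomial interval 0.270% to 0.274%) and 0.408% in HCT116 spheroids (0.405% to 0.411%). The shares in LOVO were 0.330% (0.328% to 0.333%) in adherent cells and 1.23% (1.23% to 1.24%) in spheroids. The LOVO spheroids thus gave the highest share of the 4 libraries, and the adherent HCT116 cells the lowest. Per length, the FPKM summed over the members was 408, 580, 580 and 1874 in the same order. SCD alone was 35.7% of this sum in adherent HCT116 cells and 49.0%, 48.6% and 50.7% in the other libraries. In the plot of levels the filled red squares of LOVO spheroids lie highest for 6 of the members.

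**Figure D1:**
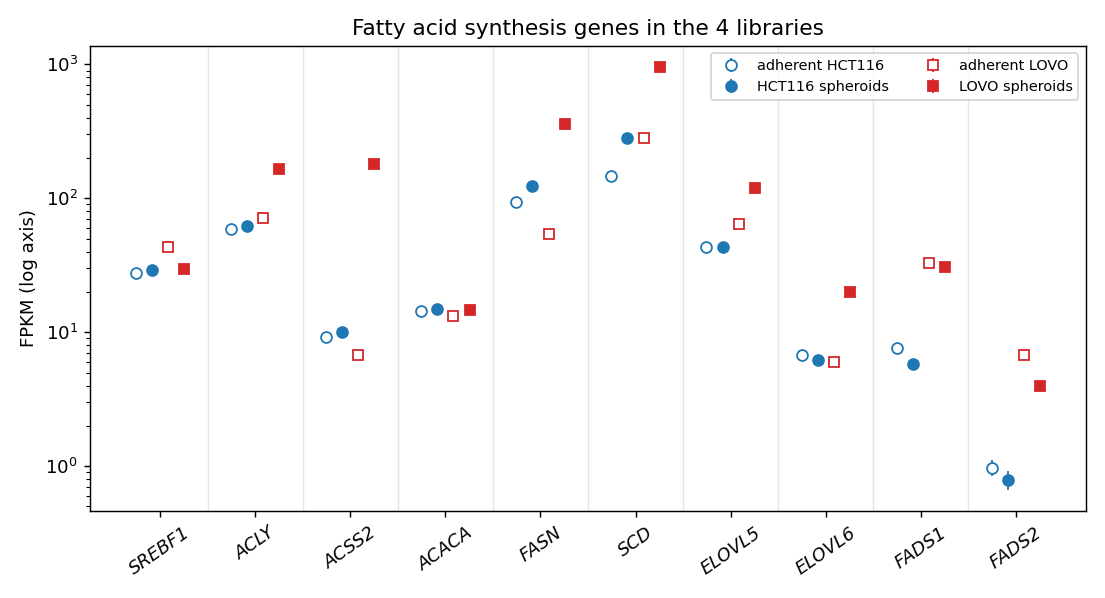
FPKM of the 10 genes in the 4 libraries on a log axis, with open symbols for adherent cells, filled symbols for spheroids, blue circles for HCT116 and red squares for LOVO; bars are 95% exact Poisson counting intervals and are mostly smaller than the symbols. FASN, ACSS2 and ELOVL6 are lower in adherent LOVO cells than in either HCT116 library and highest in LOVO spheroids, while FADS1 and FADS2 are higher in both LOVO libraries than in HCT116.

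By count, 0 of the 10 members were called higher in HCT116 spheroids, where 2.19% of the 14429 genes were, and 0 were called lower, where 3.33% were. In LOVO spheroids 5 of the 10 were called higher, against 8.57% of all genes, and 0 were called lower, against 7.85%. The 5 were ACSS2, FASN, SCD, ELOVL6 and ACLY. Because the members were chosen with earlier results of these data known, counts of members beside shares of all genes are a description only, here and below. Over all genes the split depended on the scaling, with 316 higher and 480 lower in HCT116 as deposited against 434 and 395 with the reads on genes as the library size. In LOVO 1236 were higher and 1133 lower as deposited, against 2267 and 972 as TPM, 1417 and 849 under TMM-style scaling, and 1558 and 724 with the reads on genes as the library size. The median difference over the members was 0.05 in HCT116 and 1.05 in LOVO, beside medians of -0.03 and -0.06 over all genes compared. In each line 7 members were above 0 and 3 below, while 45.8% of all genes were above 0 in HCT116 and 45.5% in LOVO. The counting interval of the log2 ratio excluded 0 for 5 members in HCT116, 4 above and 1 below. In LOVO it did so for all 10, 7 above and 3 below. The same share over all genes was not computed, so these counts do not set the members apart.

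Growth form was also tested over both lines, with the cell line as a block, by limma on log2(FPKM + 1), a fit that takes the lines as replicates and has 1 residual degree of freedom. It called 0 of the 10 members and 0.00% of all 14429 genes at an adjusted p under 0.05, with 1 member and 1502 genes at an unadjusted p under 0.05. The member was SCD, with a mean difference of 1.35 (limma's 95% interval 0.53 to 2.17), higher in both lines, and a limma adjusted p of 0.476. For FASN the mean difference was 1.56 (-0.00356 to 3.12) and for ACSS2 2.34 (-0.44 to 5.12), with limma adjusted p of 0.476 and 0.487.

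The regulator was lower, not higher, in LOVO spheroids. SREBF1 (ENSG00000072310, chr17:17810399-17837002, minus strand of GRCh38) was at 27.9 FPKM in adherent cells and 29.1 in spheroids of HCT116, and at 43.1 and 29.4 in those of LOVO. Adherent LOVO cells were the library that stood out, and the other levels lay close together. Spheroids over adherent cells gave a log2 ratio of 0.06 in HCT116 (interval -0.000739 to 0.12), which was not detectable beyond counting error, and -0.55 in LOVO (-0.61 to -0.50). In LOVO spheroids SREBF1 was thus lower while FASN was 6.66 times as high, and the ratio of FASN to SREBF1 in FPKM went from 1.25 to 12.2, compared with 3.35 and 4.24 in HCT116. The table gives 1 value for a gene, and GENCODE 29 lists 23 transcripts of SREBF1 with 23 different starts, so the SREBP-1a and SREBP-1c forms were not separated. Of its exonic bases, 6.92% overlap RAI1 on the opposite strand, and whether counting used strand is not given in the sources used here. RAI1 itself had a difference of -0.72 in LOVO.

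Both sources of acetyl-CoA were higher in LOVO spheroids, and the acetate enzyme was so by far more. ACSS2 (ENSG00000131069, chr20:34872146-34927962, plus strand), the cytosolic and nuclear acetyl-CoA synthetase, was at 9.17 FPKM in adherent cells and 10.1 in spheroids of HCT116, and at 6.74 and 181 in those of LOVO. These levels came from 1007, 913, 651 and 19615 reads. The first 3 of these levels ran from 6.74 to 10.1 FPKM, and LOVO spheroids lay far outside that range. The FPKM of ACSS2 was 26.9 times as high in LOVO spheroids as in adherent LOVO cells (log2 ratio 4.75, interval 4.63 to 4.86), and on the log2(FPKM + 1) scale its difference of 4.56 ranked 16 from the top among the 14429 genes. In HCT116 the log2 ratio was 0.14 (0.01 to 0.27). No transcript of another gene shared 50 bases or more with an ACSS2 transcript.

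ACLY (ENSG00000131473, chr17:41866908-41930542, minus strand), which cleaves citrate in the cytosol, was at 58.6 FPKM in adherent cells and 62.2 in spheroids of HCT116, and at 70.8 and 166 in those of LOVO. It was 2.34 times as high in LOVO spheroids as in adherent LOVO cells (log2 ratio 1.23, interval 1.19 to 1.27), with a log2 ratio of 0.09 (0.03 to 0.14) in HCT116. ACLY was above ACSS2 in the first 3 of these libraries, by a ratio of FPKM of 6.38, 6.16 and 10.5. In LOVO spheroids the order in FPKM turned, with a ratio of 0.917. With a ratio this near to 1, which gene was higher there depends on the gene lengths used.

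Of the enzymes that make palmitate, the synthase differed and the carboxylase hardly did. FASN (ENSG00000169710, chr17:82078333-82098332, minus strand) was at 93.3 FPKM in adherent cells and 123 in spheroids of HCT116, and at 54.0 and 360 in those of LOVO. It was lowest in adherent LOVO cells and highest in LOVO spheroids, with both HCT116 libraries between. The log2 ratio was 0.40 (interval 0.37 to 0.43) in HCT116 and 2.74 (2.70 to 2.77) in LOVO, where the difference of FASN ranked 100 from the top of all genes compared.

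ACACA (ENSG00000278540, chr17:37084988-37406818, minus strand), which makes the malonyl-CoA that FASN uses, was at 14.3 FPKM in adherent cells and 14.8 in spheroids of HCT116, and at 13.3 and 14.6 in those of LOVO. It had the narrowest range of the 10 members. Its log2 ratio was 0.05 (interval -0.02 to 0.12) in HCT116 and 0.13 (0.06 to 0.20) in LOVO. FASN stood above ACACA by a ratio of FPKM of 6.51 and 8.32 in adherent HCT116 cells and HCT116 spheroids, and of 4.06 and 24.7 in the LOVO libraries. The second carboxylase gene, ACACB, was at 1.44 to 2.10 FPKM.

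SCD, the stearoyl-CoA desaturase, had the highest FPKM of the members in every library and was the member with the largest difference in HCT116. SCD (ENSG00000099194, chr10:100347124-100364834, plus strand) was at 146 FPKM in adherent cells and 284 in spheroids of HCT116, and at 282 and 950 in those of LOVO. The level of HCT116 spheroids was thus about that of adherent LOVO cells. SCD was 1.95 times as high in HCT116 spheroids (log2 ratio 0.96, interval 0.93 to 0.99) and 3.37 times as high in LOVO spheroids (1.75, 1.73 to 1.77). In HCT116 its difference of 0.96 lay just under the limit of 1 and ranked 367 from the top. Under TMM-style scaling it was 1.00 and with the reads on genes as the library size 1.08, so that the count of members called higher in HCT116 was 1 instead of 0. Transcripts of SCD share up to 96 bases with the pseudogene SCDP1, and 4.42% of its stretches of 50 bases occur in other genes, while SCDP1 was at most at 0.460 FPKM. The paralog SCD5 was at 12.3 and 15.7 FPKM in HCT116 and at 0.715 and 1.08 in LOVO.

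ELOVL6 was called higher in LOVO spheroids and ELOVL5 fell under the limit as deposited, while both were about level in HCT116. ELOVL6 (ENSG00000170522, chr4:110045846-110199199, minus strand), which lengthens palmitate to stearate, was at 6.76 FPKM in adherent cells and 6.24 in spheroids of HCT116, and at 5.99 and 20.02 in those of LOVO. Again LOVO spheroids were the only library outside a narrow range. The log2 ratio was -0.11 (interval -0.25 to 0.02) in HCT116, where the difference of -0.10 became 0.01 with the reads on genes as the library size, and 1.74 (1.63 to 1.86) in LOVO. ELOVL5 (ENSG00000012660, chr6:53267398-53349179, minus strand), which lengthens polyunsaturated chains, was at 43.5, 43.6, 64.4 and 119 FPKM in the same order. Its log2 ratio was 0.00127 (-0.07 to 0.07) in HCT116 and 0.89 (0.83 to 0.94) in LOVO. ELOVL5 stayed under the limit of 1 in LOVO on the log2(FPKM + 1) scale, at 0.88, but not as TPM (1.09), under TMM-style scaling (1.01) or with the reads on genes as the library size (1.09), which made 6 members called higher.

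The desaturases of polyunsaturated chains were the only member enzymes whose FPKM in spheroids was below that of adherent cells in both lines as deposited. Neither was called higher or lower. FADS1 (ENSG00000149485, chr11:61799625-61829318, minus strand) was at 7.67 FPKM in adherent cells and 5.75 in spheroids of HCT116, and at 33.0 and 30.9 in those of LOVO. FADS2 (ENSG00000134824, chr11:61792980-61867354, plus strand) was at 0.974 and 0.788 FPKM in HCT116 and at 6.81 and 3.94 in LOVO in the same order, and its 219 and 146 reads in HCT116 were the fewest of any member. For both genes the libraries labelled HCT116 and LOVO lay further apart than the growth forms within a line.

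For FADS1 the log2 ratio was -0.42 (interval -0.53 to -0.30) in HCT116 and -0.09 (-0.15 to -0.04) in LOVO. The LOVO difference was above 0 as TPM (0.11), under TMM-style scaling (0.04) and with the reads on genes as the library size (0.12), so its direction depended on the scaling. For FADS2 the log2 ratio was -0.31 (-0.62 to 0.00252) in HCT116, not detectable beyond counting error, and -0.79 (-0.91 to -0.67) in LOVO, which kept its sign under each scaling. FADS1 lies within the span of FADS2 in opposite orientation, and they share 490 exonic bases, 4.79% of those of FADS1 and 4.44% of those of FADS2, so that without strand some reads could be counted for either. FADS1 transcripts share up to 154 bases with other genes, but only 1.87% of its stretches of 50 bases are shared. The neighbour FEN1 overlaps FADS2 by 49 exonic bases on the same strand.

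**Figure D2:**
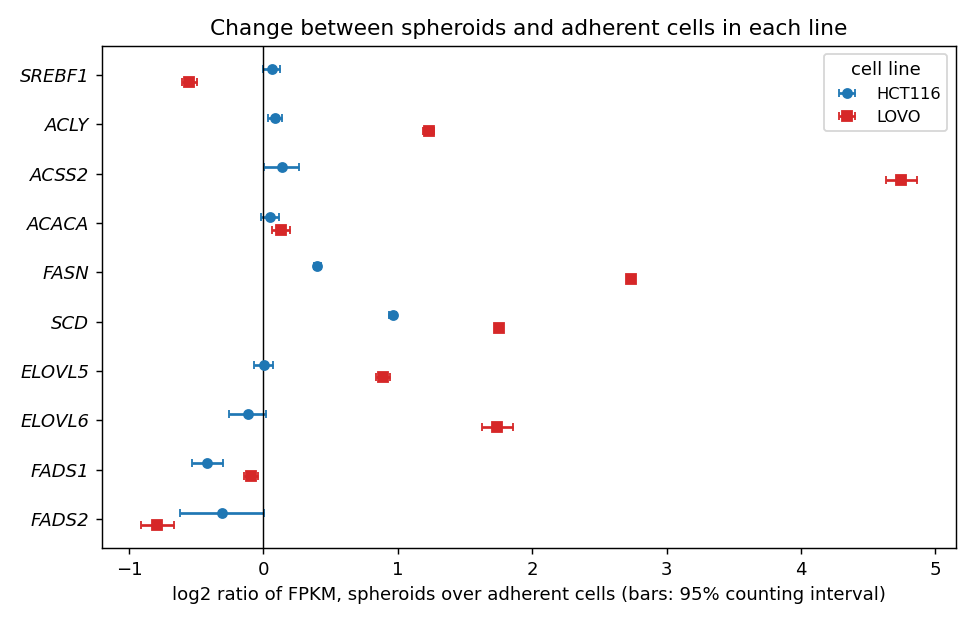
Log2 ratio of FPKM between spheroids and adherent cells for each of the 10 genes, in HCT116 (blue circles) and LOVO (red squares), with 95% exact counting intervals as bars. In HCT116 SCD at 0.96 and FASN at 0.40 stand apart from values between -0.42 and 0.14, while in LOVO the values run from -0.79 for FADS2 to 4.75 for ACSS2.

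Set against each other, the changes of the lines were unequal for most members. The difference in LOVO exceeded that in HCT116 by over 1 for 4 members, against 9.27% of all genes, and fell short of it by over 1 for 0 members, against 6.70%. These were ACSS2 by 4.43, FASN by 2.31, ELOVL6 by 1.69 and ACLY by 1.13, and as TPM ELOVL5 joined them at 1.07. The ratio of the ratios was 24.4 for ACSS2, with a log2 of 4.61 and a counting interval (normal approximation to Poisson counts) from 4.44 to 4.78. For ACACA the log2 of this ratio was 0.08 (-0.01 to 0.18), so that no inequality was detectable at this depth. SREBF1 and FADS2 went the other way, with -0.61 (-0.70 to -0.53) and -0.48 (-0.81 to -0.16). With 1 library a condition, these inequalities could not be tested.

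The levels of the lines themselves were compared next. Between adherent cells, 2 members were higher in LOVO by over 1, FADS1 and FADS2, against 17.4% of all genes, and 0 were lower, against 16.4%. FADS2 was 6.99 times as high (log2 ratio 2.80, interval 2.60 to 3.02) and FADS1 4.30 times (2.11, 2.03 to 2.19). FADS2 was under 1 FPKM in both HCT116 libraries and passed the filter only through the LOVO libraries. Its calls here and between spheroids are therefore not independent of the filter. FASN was the member furthest below HCT116, with a log2 ratio of -0.79 (-0.83 to -0.75). Between spheroids, 8 members were higher in LOVO, against 17.7% of all genes, and 0 were lower, against 15.0%. Only SREBF1 and ACACA were not among the 8, with log2 ratios of 0.02 (-0.05 to 0.08) and -0.02 (-0.09 to 0.04), both within counting error. FASN had crossed over, to a log2 ratio of 1.54 (1.52 to 1.57), and ACSS2 was 17.9 times as high in LOVO spheroids as in HCT116 spheroids. These comparisons share libraries with those within a line and are not independent of them.

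The order of the levels in FPKM rests on the gene lengths used. It was nearly the same in both HCT116 libraries, from SCD, FASN, ACLY, ELOVL5, SREBF1, ACACA and ACSS2 down to FADS2 in last place. Only FADS1 and ELOVL6 exchanged places, and in HCT116 spheroids their counting intervals overlapped. In adherent LOVO cells SCD came before ACLY, ELOVL5, FASN, SREBF1, FADS1 and ACACA, followed by FADS2, ACSS2 and ELOVL6, neighbours whose intervals overlapped. In LOVO spheroids SCD, FASN and ACSS2 led, ahead of ACLY and ELOVL5. FADS1 and SREBF1 followed with overlapping intervals, and ELOVL6, ACACA and FADS2 came last. ACSS2 was in place 9 of 10 in adherent LOVO cells and in place 3 in LOVO spheroids.

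Genes that control SREBP processing were read next. INSIG1, which retains the SREBP precursors and is itself a known SREBP target, was at 25.9 FPKM in adherent cells and 37.9 in spheroids of HCT116, and at 34.3 and 292 in those of LOVO. Its difference of 3.05 in LOVO was the only call among the 6 genes of this list, and in HCT116 it was 0.53. INSIG2 had differences of 0.48 and 0.95 in HCT116 and LOVO, and SREBF2 of 0.27 and 0.40. The escort SCAP had 0.12 and -0.02. The protease genes lay below 0 in both lines as deposited, MBTPS1 at -0.09 and -0.29 and MBTPS2 at -0.23 and -0.70. The list had a median of 0.19 in each line.

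Of 12 other transcription factors of lipogenic genes, 2 were called higher in LOVO spheroids and 0 in HCT116 spheroids, against 8.57% and 2.19% of all genes. In either line 0 were called lower, against 7.85% of all genes in LOVO and 3.33% in HCT116. MLXIPL, which encodes the glucose-responsive factor ChREBP, had differences of 0.80 in HCT116 and 1.52 in LOVO, although at 2.06 and 7.77 FPKM it was lower in both LOVO libraries than in HCT116 at 13.2 and 23.8. NR1H3, the oxysterol receptor LXR alpha, was at 6.16 and 15.9 FPKM in LOVO, a difference of 1.23, and had 0.05 in HCT116. Of 4 LXR targets outside the members 3 were compared, and 0 were called in either line. The 6 subunit genes of AMPK, the kinase that switches off acetyl-CoA carboxylase, had 0 calls, at a median of -0.16 in HCT116 and one of -0.19 in LOVO, the latter being -0.01 as TPM and turning to 0.00195 with the reads on genes as the library size.

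The supply of NADPH and citrate did not differ as a block. Among 6 genes, ME1, the cytosolic malic enzyme, was higher in LOVO spheroids at 48.6 against 10.4 FPKM, a difference of 2.12, and had 0.01 in HCT116. IDH1, the cytosolic NADP-dependent isocitrate dehydrogenase, was lower there at 21.9 against 93.6 FPKM, a difference of -2.05, and had 0.34 in HCT116. The medians of the list were -0.22 in HCT116 and -0.25 in LOVO. Among other genes of carboxylation, synthesis and mitochondrial fatty acid synthesis, 7 of 8 were compared and only HSD17B8, of mitochondrial fatty acid synthesis, was called, with -1.24 in HCT116 and 0.08 in LOVO. The medians of these genes were -0.30 in HCT116 and -0.34 in LOVO, and -0.19 and -0.13 with the reads on genes as the library size.

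Among the other elongation genes, 9 of 11 were compared. HACD2, a dehydratase of the elongation cycle, was lower in LOVO spheroids at 29.3 against 96.3 FPKM, a difference of -1.68, and had -0.58 in HCT116. ELOVL2, which lengthens long polyunsaturated chains, had 10 reads in adherent LOVO cells against 274 in LOVO spheroids, a difference of 1.95, and passed the filter only through LOVO spheroids. The 4 other desaturase and cytochrome b5 genes had 0 calls, with medians of 0.13 and 0.11.

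For the use of ready-made fatty acids, 7 of 12 genes of uptake and activation were compared. Their median was -0.34 in HCT116 and 0.07 in LOVO, and the LOVO median was 0.56 and 1.83 with pseudocounts of 0.1 and 0.01. ACSL4, an acyl-CoA synthetase with a preference for arachidonate, was at 16.6 FPKM in adherent cells and 21.9 in spheroids of HCT116, and at 19.9 and 379 in those of LOVO. It resembled ACSS2 in being far higher in LOVO spheroids than in any other library, with differences of 0.38 and 4.18. ACSL1 had 0.06 and 1.59, and SLC27A2, a very-long-chain acyl-CoA synthetase, had -0.34 and -1.01. Of 8 glycerolipid and lipid droplet genes compared of 9, 0 were called. The median was -0.16 in HCT116 and 0.68 in LOVO, where 7 lay above 0, beside 45.5% of all genes.

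Genes of the breakdown pathway were read in the same way. Of 19 fatty acid oxidation genes compared of 20, 14 lay below 0 and 5 above 0 in each line as deposited. Of all genes 45.8% lay above 0 in HCT116 and 45.5% in LOVO. The medians of the list were -0.21 in HCT116 and -0.31 in LOVO, and 0 were called higher. With the reads on genes as the library size the medians were -0.10 and -0.11, and as TPM -0.21 and -0.12. ECI1, the mitochondrial enoyl-CoA isomerase, was called lower in both lines, with differences of -1.08 in HCT116 and -1.03 in LOVO. DECR1, the dienoyl-CoA reductase, had -0.21 and -1.26.

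Cholesterol synthesis, the other branch under SREBP control, had the highest median of the 13 lists of lipid metabolism in both lines among genes averaging 1 FPKM or more. Without that filter the LXR targets had a higher median in HCT116, 0.42 against 0.28. Of the 20 cholesterol synthesis enzymes, all compared, 17 were called higher in LOVO spheroids and 2 in HCT116 spheroids, against 8.57% and 2.19% of all genes. In both lines 0 were called lower, against 7.85% of all genes in LOVO and 3.33% in HCT116. The medians were 1.90 in LOVO and 0.28 in HCT116, beside 1.05 and 0.05 for the 10 members. The 4 enzymes with the largest differences were MSMO1, with 1.02 in HCT116 and 4.36 in LOVO, MVD with 0.35 and 3.49, SQLE, the squalene epoxidase, with 0.62 and 2.56, and HSD17B7 with 0.07 and 2.48. No test of the members against this list was made.

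**Figure D3:**
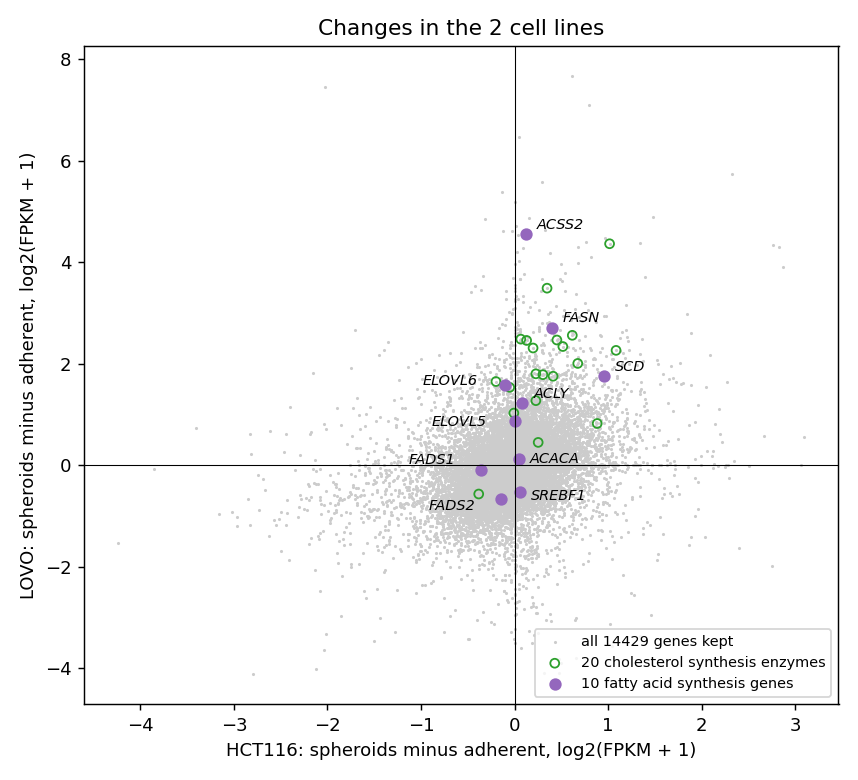
Difference between spheroids and adherent cells on the log2(FPKM + 1) scale in LOVO (y axis) against that in HCT116 (x axis), for all 14429 genes compared (grey), the 20 cholesterol synthesis enzymes (green rings) and the 10 fatty acid synthesis genes (purple). ACSS2 at 0.12 and 4.56 lies near the vertical axis and above every green ring. FASN at 0.40 and 2.71 lies high among the rings, while ACACA, SREBF1, FADS1 and FADS2 lie within the grey cloud.

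Markers of other cells differed in LOVO spheroids too. PECAM1, an endothelial adhesion protein, was at 0.0359 FPKM in adherent LOVO cells against 6.35 in the spheroids, a difference of 2.83, and the 3 endothelial markers summed to 1.13 and 7.84 FPKM, with CDH5 at 1.05 and 1.42. PECAM1 and COL3A1 passed the filter only through LOVO spheroids, and KRT20 only through HCT116 spheroids. COL3A1 had a difference of 1.76 in LOVO and COL1A1 one of 1.34 in HCT116 and -0.62 in LOVO. Of the 7 colon epithelium markers compared in HCT116, 6 lay below 0 and the median was -0.23, while KRT20 had 2.13. KRT8 and KRT19 were lower in LOVO spheroids, with differences of -1.20 and -1.44. Of the 4 adipocyte markers ADIPOQ had 0 reads in every library, and LEP and FABP4 had 0 reads in LOVO. PLIN1 had 12 reads in adherent LOVO cells against 77 in the spheroids, and the 4 together summed to 0.284 and 0.232 FPKM in HCT116 and to 0.176 and 1.01 in LOVO. The 5 immune markers summed to at most 1.95 FPKM. The part of these markers in the LOVO values was not tested, and fewer cells of a type cannot be told apart from less RNA per cell in these bulk samples.

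Of 4671 other protein-coding genes averaging 10 FPKM or more, those whose pair of differences lay nearest to the medians of the members were GGH, STN1, TNIP2, TAP1 and TMEM41B, at Euclidean distances of 0.03 to 0.05 on the log2 scale. The likeness rests on 2 differences from 4 libraries and is a description only.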

How the data were processed

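RNA-seq libraries (SMARTER mRNA-Seq kit) were made from 4 samples. The deposited table held FPKM per gene and library, computed by the authors from fragments counted per gene, with GRCh38 coordinates. Columns mapped to samples by name, and 0 columns were unmapped. Aligner, counter, annotation and strand setting are not given in the sources used here, and the submitters' processing notes name mm10 and GRCm38, mouse builds that the human gene identifiers go against. Authors' FPKM were per library sizes of 0.907 to 1.09 times the reads on genes. This shifts all log2 ratios of FPKM of a library alike, and differences of log2(FPKM + 1) less for low genes.

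Reads were recovered as FPKM times gene length over the worth of 1 read. The recovered reads were whole numbers within 0.001 for 100% of values. All 58735 gene identifiers were found in GENCODE 29, and 58724 had the same start and end. Genes averaging 1 FPKM or more were kept, 1 was added before taking log2, and a difference over 1 either way was called. Intervals for ratios were exact and conditional on the summed reads, and those for ratios of ratios used a normal approximation. A count of 0 reads allows up to 3 reads, or 0.147 to 0.179 FPKM at 1 kb. With 1 library per condition no count model was run and no difference within a line was tested. Growth form over both lines was tested with limma 3.58.1 (R 4.3.3), with the cell line as block and Benjamini-Hochberg adjustment over all genes kept. The computations were tested on simulated data. Python 3.11.15, numpy 2.4.6, pandas 2.3.3, scipy 1.17.1 and matplotlib 3.10.9 were used.

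Members and lists were chosen with earlier results of these data known. Named were the members, the SREBP processing genes, list and marker genes past 1 in either line (at most 4 per list, by size), and the 5 nearest in pattern. Where ACACB, SCD5, CDH5, EPCAM, CDH1, CDX2, KRT18, LUM, DCN, COL1A2, ADIPOQ, LEP, FABP4, PLIN1, RAI1, FEN1 and SCDP1 are named, they were added after their values were seen or as marker, paralog or neighbour checks. Alternatives were other pseudocounts, filters, scalings and a threshold of 2.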

Additional observations from a re-analysis of the deposited data

Results flagged for a closer look

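IDH1 and COL1A1 differed in opposite directions in the lines. For IDH1, the cytosolic isocitrate dehydrogenase, the difference between spheroids and adherent cells was 0.34 in HCT116 and -2.05 in LOVO, so that the LOVO change minus the HCT116 change was -2.39. For COL1A1, a collagen gene on the fibroblast marker list, it was 1.34 in HCT116 and -0.62 in LOVO, a gap of -1.96. With 1 library per condition the difference between the lines was not tested.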

How the results depend on the processing

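No replicate could be left out because each condition had 1 library. The fit over both lines with the cell line as block, added after seeing the data, called 0 genes and is given with the counts of members. Medians of 3 lists changed sign: AMPK subunits in LOVO (0.00195 with the reads on genes), and with a mean FPKM of at least 5 the other desaturases in LOVO (-0.05) and the other elongation enzymes in HCT116 (-0.57). Of 30 member values (differences in each line and the gap between lines), 28 kept their sign under the 6 alternatives of scaling and pseudocount. The exceptions were FADS1 in LOVO (0.11 as TPM, 0.04 under TMM-style scaling, 0.12 with the reads on genes as the library size, a scaling chosen after seeing the data) and ELOVL6 in HCT116 (0.01 with the reads on genes). The median of the members lay between 0.05 and 0.17 in HCT116 and between 1.05 and 1.26 in LOVO, where the median of all genes went from -0.06 to 0.10 as TPM and 0.08 with the reads on genes, so that relative to all genes the members differed less between scalings.

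Members called higher in HCT116 numbered 1 under TMM-style scaling and with the reads on genes, and those in LOVO numbered 2 at a threshold of 2. All genes called higher in HCT116 numbered 764 and 937 with pseudocounts of 0.1 and 0.01, 613 as TPM, 520 without a filter, 135 with a mean FPKM of at least 5, 29 at a threshold of 2 and 164 among protein-coding genes. Those called lower in HCT116 numbered 760 and 849 with the same pseudocounts and 73 at a threshold of 2. Those called higher in LOVO numbered 2074 and 2266 with these pseudocounts, 2267 as TPM, 627 with a mean FPKM of at least 5 and 261 at a threshold of 2. Those called lower in LOVO numbered 136 at a threshold of 2 and 724 with the reads on genes. A higher threshold calls fewer genes by construction, and for the other shifts the cause was not tested. The other 62 of 82 recomputed counts stayed within 1.5 times. Depth limited FADS2 in HCT116 most, at 146 to 219 reads.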
